A study of Sus scrofa with 220 samples.

Results

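The spherical embryo (Sph) is the pig conceptus shortly before it elongates, when its inner cells form 2 layers. The epiblast (EPI) is the pluripotent layer that gives rise to the fetus, and it is marked by a network of transcription factors such as PRDM14 and SALL2. The hypoblast (HYPO) is the extraembryonic endoderm that lines the blastocyst cavity and builds the yolk sac. It lays down basement membrane, takes up and secretes proteins and lipids in a manner like liver, and is marked by GATA and HNF transcription factors. The comparison asked which genes separate these layers at this stage. It used the 60 cells labelled Sph EPI or Sph HYPO, of 220 pig cells sequenced in the study, and left out no cell of either label. The 48 EPI cells came from embryos C, D, E and F (14, 11, 4 and 19 cells), and the 12 HYPO cells from embryos C, E and F (2, 2 and 8 cells). Embryo D gave no HYPO cell.

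The embryos were in vivo conceptuses of artificially inseminated sows (Large White and Landrace crosses), with no treatment and no genetic change named. The labels give no age per embryo. The 2 layers were separated by hand, trophectoderm was not collected at this stage, and single cells were picked manually and sequenced with Smart-seq2, which reads whole polyadenylated transcripts. Counts were summed per embryo and layer, which gave 4 EPI and 3 HYPO sums, and embryos, not cells, were the replicates. The sums held 3079243 counts (HYPO of embryo E) to 47016945 counts (EPI of embryo F), and a cell held a median of 2235586.5 counts in EPI and 1988462.5 in HYPO. HYPO was thus measured at lower depth, and embryos C and E entered it with 2 cells each. No pair of the 60 cells had a correlation of counts above 0.838, so no cell had a copy among them.

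The labels were set cell by cell against lineage markers, with a threshold of 1 TPM (a level scaled by transcript length and by the total of the cell). Of 5 measured epiblast markers (ETV1, SALL2, PRDM14, DNMT3B and NODAL), EPI cells had 2 to 5 above it (median 5) and HYPO cells 0 to 2 (median 1). Of 6 hypoblast markers (APOA2, FN1, GATA4, GATA6, PDGFRA and NID2), HYPO cells had 4 to 6 (median 5.5) and EPI cells 0 to 2 (median 1). Every one of the 60 cells had a higher summed TPM of its own layer's markers than of the other's. The sum of the hypoblast markers ran from 0 to 118 TPM in EPI cells and from 2369 to 13027 TPM in HYPO cells. APOA2 and FN1 made up most of that sum in every HYPO cell. The labels thus fit the markers, but this is not an independent check. The study also used known markers when it named its cells, and ETV1, SALL2, APOA2 and FN1 had been proposed as markers for this comparison. HAPLN1, a protein that links hyaluronan to proteoglycans, had been entered among the epiblast markers for this check and is left out of the 5, since its counts lay in HYPO. SOX2, NANOG, SALL4, SOX17, SOX15 and COL4A1 could not be matched to an entry and are not analysed here.

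Between the layers, edgeR called 167 of 14721 genes (1.13%) at an adjusted p under 0.05, with 83 genes (0.564%) called in the direction of EPI and 84 (0.571%) in that of HYPO. Of the 83 genes higher in EPI, 35 had 0 counts in all HYPO cells and 23 had 1 to 3, and the median log2 fold change of the 25 others was 2.8. Of the 84 genes higher in HYPO, 62 had over 3 counts in EPI, and their median log2 difference, HYPO over EPI, was 4.46. The EPI sums hold the counts of 48 cells and the HYPO sums those of 12, so these numbers of low counts are not matched for depth. The median log2 fold change of EPI over HYPO over all genes was 0.57, above 0, and it was 0.44 with another size factor (relative log expression). Taking the embryo as a block, since C, E and F gave both layers, reduced the calls to 82, namely 33 for EPI and 49 for HYPO. Of the 167 genes 72 were called in both fits. A model of all 7 lineages of the study called 95 genes, of which 53 were among the 167, and each named gene that it did not call is given with its value below. The number of calls was 78 without the EPI of embryo E, 108 and 109 without the EPI of C and F, and 583 without the HYPO of embryo F, whose 8 cells are described at the end. The sample titles carry 8 SLX numbers, which the labels do not explain and which are called pools here. They were split by the order of the numbers. From cells of the first 4 pools alone 149 genes were called, and 89 from the last 4 alone. The HYPO of C lay in the former and that of E in the latter only. All 167 genes kept their direction in every one of the 19 alternatives in which they were tested. Those alternatives re-use the same cells, and few calls held throughout. Of the 83 genes higher in EPI, 27 stayed called whichever sum was left out, and 4 were tested and called in all 19 alternatives. Of the 84 higher in HYPO, 34 and 12 did so. Calls of single genes lost with limma or in 1 set of pools are not listed in full below. DESeq2 called 1452 and limma 367 of the 14721 genes, so their counts in the lists have larger shares over all genes beside them.

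**Figure D1:**
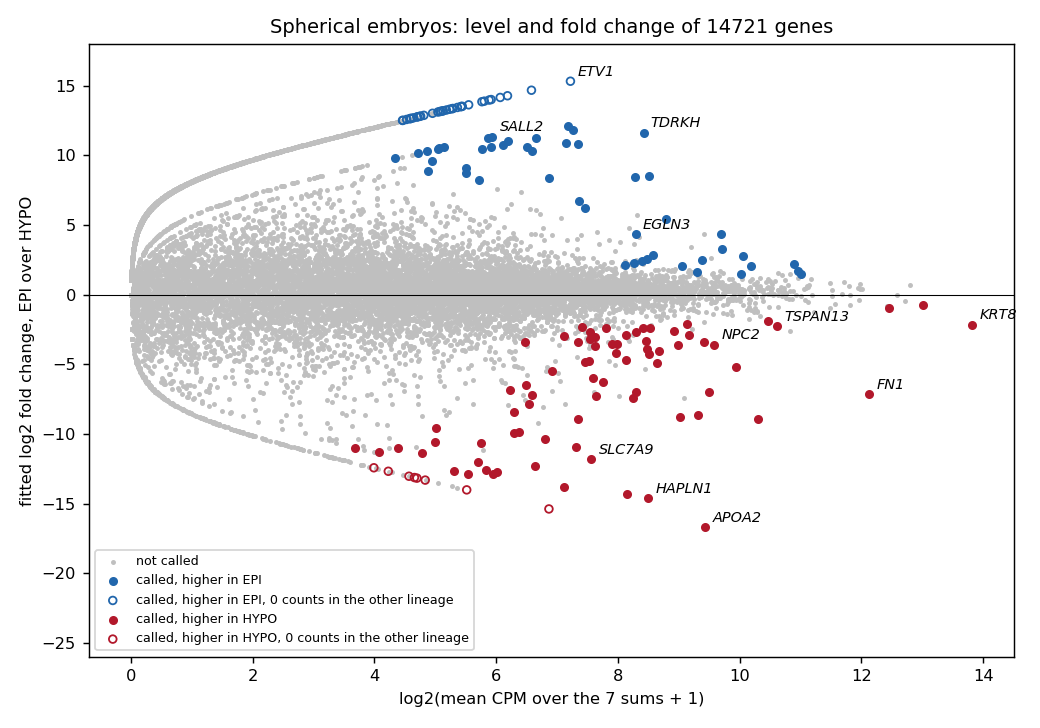
Fitted log2 fold change of EPI over HYPO (vertical axis) against log2(mean CPM over the 7 sums + 1), CPM being counts scaled to the library total (horizontal axis), one point per gene. Blue and red points are the 83 genes called for EPI and the 84 for HYPO, grey points were not called, and open circles had 0 counts in the other layer, where the plotted fold depends on a prior count and only its sign can be read. The called genes of HYPO reach higher levels, with KRT8 and FN1 at the right edge.

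Transcriptional regulators of the epiblast were among the genes called for EPI. ETV1, an ETS factor that responds to FGF signalling, had 57.8, 81.1, 53.9 and 53.3 TPM in the EPI of embryos C, D, E and F and 0 counts in all HYPO cells. It was at least 2142-fold higher in EPI (against 3 counts over the HYPO cells, edgeR adjusted p = 0.000639), and 97.9% (95% interval 88.9 to 99.9) of EPI cells and 0 of 12 HYPO cells were above 1 TPM, and the limit of the share in HYPO was 25% by 3 of 12 cells and 26.5% by the exact 95% interval. Embryo D had the highest level, and the other 3 were alike. SALL2, a zinc-finger factor, had 43.4, 67.04, 57.9 and 26.1 TPM in the EPI and 1 count among the HYPO cells, a ratio of 2465-fold (95% counting interval 442 to 97359) (edgeR adjusted p = 0.00363). SCML2, a Polycomb protein, had 44.96, 209, 117 and 82.2 TPM in the EPI and 3 counts in HYPO, a ratio of 2216-fold (95% counting interval 758 to 10745) (edgeR adjusted p = 0.00213). Embryo D was thus the highest and embryo C the lowest EPI for SCML2. Every EPI lay above every HYPO for all 3 genes, but no overlap was a condition for naming genes of smallest p. With all 7 lineages in 1 model ETV1 and SCML2 were not called (edgeR adjusted p = 0.121 and 0.122).

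PRDM14, a repressor that guards pluripotency, had 26.7, 60.2, 7.2 and 68.3 TPM in the EPI and 1 count in HYPO (edgeR adjusted p = 0.0333). The EPI of embryo E stood lowest, and the call was lost with the embryo as a block (edgeR adjusted p = 0.234) and without the EPI of C, D or F or the HYPO of C or E (edgeR adjusted p = 0.0793, 0.129, 0.156, 0.0667 and 0.06). In the model of 7 lineages its edgeR adjusted p was 0.275. DNMT3B, the de novo DNA methyltransferase, had 487, 378, 552 and 434 TPM in the EPI and 0, 19.6 and 47.5 TPM in the HYPO of C, E and F. DNMT3B was not called (log2 fold change 4.39, SE 1.325, edgeR adjusted p = 0.171), although the values of the layers did not overlap. Non-overlapping sums were common: over all genes 11.3% were higher in every EPI sum and 4.17% in every HYPO sum. NODAL, the ligand that keeps the epiblast pluripotent and patterns it, had 58.7, 101, 78.8 and 114 TPM in the EPI and 174, 0 and 37.1 TPM in the HYPO (log2 fold change 0.48, SE 1.49, edgeR adjusted p = 0.948), so the HYPO of embryo C was higher than any EPI and that of E had no count. NODAL is 1 of 16 entries that the authors added to the annotation, and these hold even counts only.

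Of 23 tested genes in the list of epiblast and pluripotency factors, 4 were called for EPI (ETV1, SCML2, SALL2 and PRDM14). Of the rest, 1 was called for HYPO and 18 were not called. Among all genes the shares of such calls were 0.564% for EPI and 0.571% for HYPO. The median log2 fold change of the list was 2.74, beside 0.57 over all genes. With the genes at 0 in 1 lineage set at their bound, these medians were 1.95 and 0.54. The member higher in HYPO was TBX3, a T-box factor of the early embryo and endoderm. TBX3 had 5.56, 132 and 14.3 TPM in the HYPO of C, E and F and 1 count in EPI, a ratio of 9303-fold (95% counting interval 1668 to 367623) (edgeR adjusted p = 0.0115). Embryo E carried most of it, and without the HYPO or the EPI of E the call was lost (edgeR adjusted p = 0.0689 and 0.0734). Of the 12 HYPO cells 9 were above 1 TPM for TBX3.

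**Figure D2:**
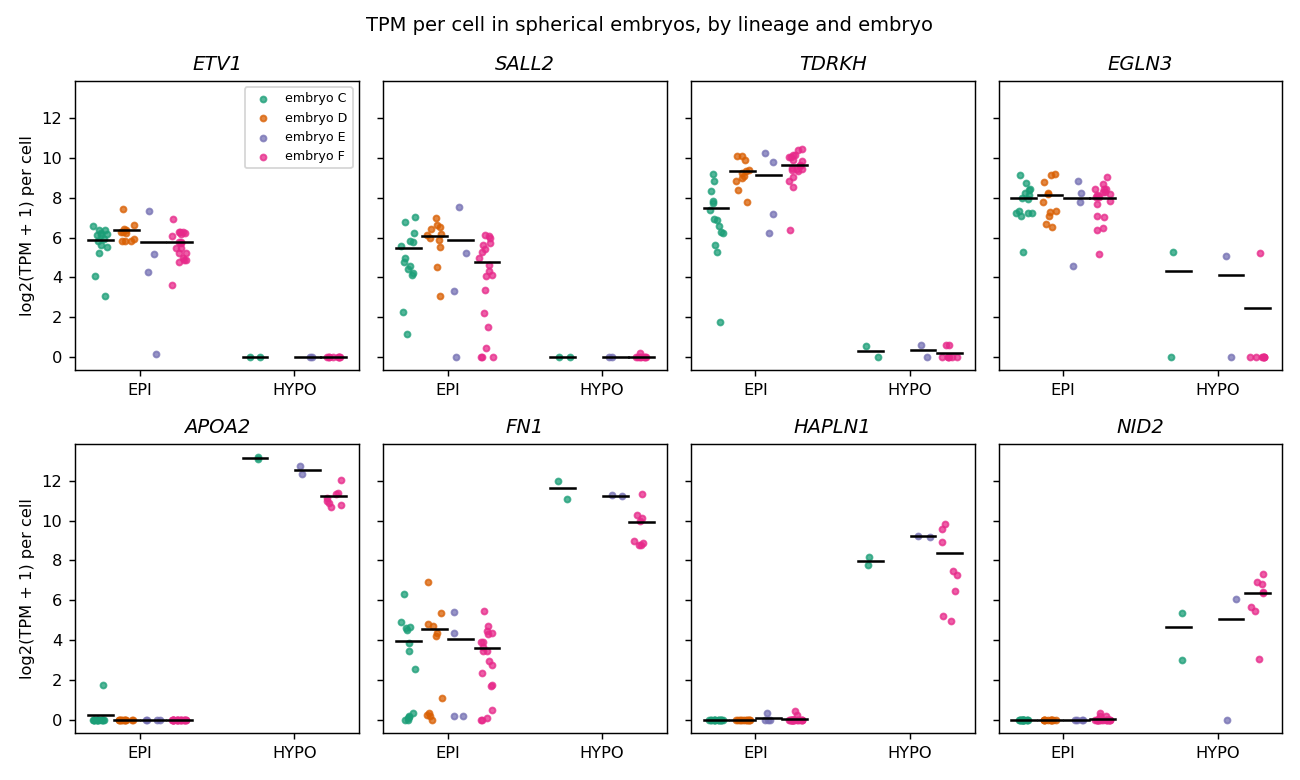
Level of 8 genes in each of the 60 cells, as log2(TPM + 1), by layer (horizontal axis) and embryo (colour); black bars are the log2 of the mean TPM per embryo plus 1. ETV1, SALL2 and TDRKH were near 0 in all 12 HYPO cells, and APOA2, HAPLN1 and NID2 in nearly all of the 48 EPI cells, whereas EGLN3 was above 1 TPM in 3 of 12 HYPO cells and FN1 in 32 of 48 EPI cells.

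Members of a list of germline-associated genes, chosen like the other lists with earlier results of these data known, were also called for EPI. TDRKH and TDRD10 encode Tudor-domain proteins, and TDRKH acts in the piRNA pathway. TDRKH had 181, 649, 574 and 813 TPM in the EPI and 0.246, 0.262 and 0.136 TPM in the HYPO, from 72709 counts against 4 (log2 fold change 11.62, SE 0.91, edgeR adjusted p = 0.000203). TDRD10 had 378, 369, 306 and 360.4 TPM in the EPI and 2 counts in HYPO, a ratio of 3503-fold (95% counting interval 969.7 to 28928) (edgeR adjusted p = 0.00029). All 48 EPI cells and none of the 12 HYPO cells were above 1 TPM for both genes. USP44, a deubiquitinase of the mitotic checkpoint, had 120.1, 172, 124 and 203 TPM in the EPI and 0, 0.343 and 0.968 TPM in the HYPO (log2 fold change 8.55, SE 1.08, edgeR adjusted p = 0.00426). TDRKH was lowest in the EPI of embryo C, but all 3 genes lay far above HYPO in each embryo. These were the 3 of 26 tested members of the germline list that edgeR called, all higher in EPI, against 0.564% over all genes. DESeq2 (1452 calls over all 14721 genes) called 6 in EPI and 1 in HYPO, and limma (367 calls) 3 and 0. In the 7-lineage model TDRKH, TDRD10 and USP44 were not called (edgeR adjusted p = 0.126, 0.198 and 0.219). The median of the list was 6.90 (3.38 with the genes at 0 in one lineage set at their bound), beside 0.57 (0.54) over all genes.

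The smallest p values among genes higher in EPI included enzymes. EGLN3, a prolyl hydroxylase of the hypoxia response, had 253, 278, 251 and 255 TPM in the EPI and 19.1, 16.2 and 4.51 TPM in the HYPO (log2 fold change 4.33, SE 0.52, edgeR adjusted p = 0.00353). By mean TPM the EPI of the 4 embryos had like levels of EGLN3, with a mean of 259.5 ± 12.6 TPM (SD, n = 4). By CPM of the sums the EPI of embryo E was lower, with 423 against 555, 550 and 578 in C, D and F. ACADL, a mitochondrial acyl-CoA dehydrogenase, had 72.3, 98.1, 55.1 and 130.3 TPM in the EPI and 2 counts in HYPO, a ratio of 2504-fold (95% counting interval 693 to 20679) (edgeR adjusted p = 0.00192). LPCAT2, which remodels phospholipids, had 93.7, 137, 119.6 and 132 TPM in the EPI and 2 counts in HYPO, a ratio of 3279-fold (95% counting interval 908 to 27079) (edgeR adjusted p = 0.00221). ACSL4, which activates long-chain fatty acids, had 64.1, 39.1, 54.8 and 46.5 TPM in the EPI and 2 counts in HYPO, a ratio of 2090.2-fold (95% counting interval 579 to 17261) (edgeR adjusted p = 0.0086). ACADL, LPCAT2 and ACSL4 were the 3 of 36 tested genes of lipid transport and metabolism that edgeR called, all higher in EPI, against 0.564% over all genes. DESeq2 (1452 calls over all 14721 genes) called 5 in EPI and 0 in HYPO, and limma (367 calls) 4 and 2. Fitted with all 7 lineages, EGLN3, LPCAT2 and ACSL4 were not called (edgeR adjusted p = 0.331, 0.19 and 0.119).

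Among the other genes of smallest p on the EPI side, TCEAL9 (a transcription elongation factor-like gene) had 1769, 1027, 722 and 1518 TPM in the EPI and 1 count in HYPO, a ratio of 7229-fold (95% counting interval 1297 to 285530.1) (edgeR adjusted p = 0.00192). VSNL1, a neuronal calcium sensor, had 319, 330.0, 196 and 327 TPM and 2 counts in HYPO, a ratio of 1624-fold (95% counting interval 449.5 to 13413) (edgeR adjusted p = 0.00363). SEPTIN6, a cytoskeletal GTPase, had 56.5, 18.2, 25.7 and 39.7 TPM and no count in HYPO, and was at least 1587-fold higher in EPI (edgeR adjusted p = 0.00426). All 3 genes had at most 2 counts in HYPO. With the 7 lineages together TCEAL9, VSNL1 and SEPTIN6 were not called (edgeR adjusted p = 0.171, 0.162 and 0.128). FGF19, an endocrine FGF ligand, had 187, 185, 116 and 461 TPM in the EPI and 1 count in HYPO, a ratio of 3183-fold (95% counting interval 571 to 125736) (edgeR adjusted p = 0.00688). Embryo F had the highest level, above the next EPI by more than that EPI's own value. The edgeR adjusted p of FGF19 was 0.0941 in the 7-lineage model. By edgeR it was the only called gene of 35 tested in FGF and receptor tyrosine kinase signalling, against 0.564% over all genes. FGF17, another FGF ligand of that list, had 0.767, 0, 6.89 and 2.16 TPM in the EPI and 67.8, 0 and 348 TPM in the HYPO. It was not called (log2 fold change -6.54, SE 2.28, edgeR adjusted p = 0.229).

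Proteins secreted by liver and yolk sac were among the genes called for HYPO. APOA2, a high-density lipoprotein component, had 9031, 5963 and 2379 TPM in the HYPO of C, E and F and 1 count in the 48 EPI cells, a ratio of 128168-fold (95% counting interval 23002 to 5062524) (edgeR adjusted p = 1.1e-05). All 12 HYPO cells and 1 of 48 EPI cells were above 1 TPM. APOC3, an inhibitor of lipoprotein lipase, had 1679, 254 and 247 TPM in the HYPO and 4 counts in EPI, 1 in each embryo (log2 fold change -12.27, SE 1.24, edgeR adjusted p = 0.00138). Both were highest in embryo C, and for APOC3 the HYPO of C exceeded that of E and F severalfold. APOM, a carrier of sphingosine phosphate, had 766, 493 and 313 TPM in the HYPO and 0.0382, 0, 0 and 1.07 TPM in the EPI (log2 fold change -10.36, SE 1.59, edgeR adjusted p = 0.0122). APOE, a ligand of lipoprotein receptors, had 734, 1039.8 and 772 TPM in the HYPO and 188, 57.5, 162 and 84.2 TPM in the EPI (log2 fold change -2.87, SE 0.48, edgeR adjusted p = 0.0177). APOE was thus shared by both layers at different levels. Without the EPI of embryo E the calls of APOM and APOE were lost (edgeR adjusted p = 0.0629 and 0.0553), and that of APOE also with the embryo as a block (edgeR adjusted p = 0.0974). Fitted together with the other lineages, APOM and APOE were not called (edgeR adjusted p = 0.156 and 0.472). Of 20 tested members of this list edgeR called 4, APOA2, APOC3, APOM and APOE, all higher in HYPO, against 0.571% over all genes. DESeq2 (1452 calls over all 14721 genes) called 7 and limma (367 calls) 5, again in HYPO. The list median was -1.86 (-2.68 with the genes at 0 in one lineage set at their bound), beside 0.57 (0.54) over all genes. HABP2, a plasma protease that binds hyaluronan, had 91.4, 64.4 and 90.3 TPM in the HYPO and 2 counts in EPI, a ratio of 9565-fold (95% counting interval 2646 to 79007) (edgeR adjusted p = 0.00192).

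Matrix genes were also among those called for HYPO. FN1, the fibronectin gene, had 3155, 2449 and 964 TPM in the HYPO of C, E and F and 14.7, 22.6, 15.5 and 10.96 TPM in the EPI of C, D, E and F (log2 fold change -7.16, SE 0.38, edgeR adjusted p = 1.1e-05). FN1 was present in both layers, with 66.7% (95% interval 51.6 to 79.6) of EPI cells above 1 TPM, and the HYPO of embryo F was the lowest. HAPLN1 had 252, 589 and 332 TPM in the HYPO and 3 counts in EPI, a ratio of 30320.1-fold (95% counting interval 10373 to 147037) (edgeR adjusted p = 8.96e-05). NID2, a nidogen of the basement membrane, had 23.9, 32.9 and 81.7 TPM in the HYPO and 3 counts in EPI, a ratio of 6764-fold (95% counting interval 2313 to 32810.3) (edgeR adjusted p = 0.00594). Neither gene exceeded 1 TPM in any of the 48 EPI cells, and the limit of the share was 6.25% by 3 of 48 cells and 7.40% by the exact 95% interval. VCAN, a proteoglycan that binds hyaluronan, had 193, 157 and 61.4 TPM in the HYPO and 9.48, 12.3, 16.6 and 4.23 TPM in the EPI (log2 fold change -3.64, SE 0.52, edgeR adjusted p = 0.00835). LAMB1, a laminin chain, was the fifth called member (log2 fold change -2.39, SE 0.42, edgeR adjusted p = 0.0215), and it was lost with the embryo as a block (edgeR adjusted p = 0.109) and without the EPI of C, D or E or the HYPO of E (edgeR adjusted p = 0.0738, 0.0534, 0.0816 and 0.065). These 5 were called of 35 tested basement membrane and matrix genes, against 0.571% over all genes, and none was called higher in EPI. The list median was -2.39, beside 0.57 over all genes. DESeq2 (1452 calls over all 14721 genes) called 10 in HYPO and 3 in EPI, and limma (367 calls) 6 and 1. When all 7 lineages were fitted, VCAN and LAMB1 were not called (edgeR adjusted p = 0.148 and 0.423). FMOD, a small leucine-rich matrix proteoglycan outside that list, had 294, 67.2 and 55.2 TPM in the HYPO and no count in EPI, and was at least 7062-fold higher in HYPO (edgeR adjusted p = 0.00384).

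Further genes of smallest p in HYPO act at the membrane or in the lysosome. SLC7A9, the light chain of a cystine and basic amino acid transporter, had 573, 425 and 340.1 TPM in the HYPO and 0.552, 0.053, 0 and 0.0628 TPM in the EPI (log2 fold change -11.83, SE 1.08, edgeR adjusted p = 0.000639). SLC7A7, a light chain of a related transporter, had 272, 188 and 68.4 TPM in the HYPO and 10.5, 12.6, 1.76 and 13.8 TPM in the EPI (log2 fold change -4.17, SE 0.71, edgeR adjusted p = 0.0187). Over all genes 0.571% were called higher in HYPO and 0.564% in EPI. Amino acid genes were called in both directions, 2 of 27 in HYPO and 1 in EPI. The latter was OAT, the ornithine aminotransferase, with 1329, 1953, 2464 and 2343 TPM in the EPI and 730.3, 290.1 and 465 TPM in the HYPO (log2 fold change 2.19, SE 0.34, edgeR adjusted p = 0.0127). SLC7A7 was lost with the embryo as a block and without the EPI or HYPO of embryo C (edgeR adjusted p = 0.0777, 0.0525 and 0.0571), and OAT without the EPI of E (edgeR adjusted p = 0.0648). NPC2, which carries cholesterol out of the lysosome, had 2494, 2067 and 972 TPM in the HYPO and 127, 104, 112 and 210.5 TPM in the EPI (log2 fold change -3.60, SE 0.41, edgeR adjusted p = 0.00238). TSPAN13, a tetraspanin, had 4175, 2575 and 2256 TPM in the HYPO and 619, 652, 638 and 578 TPM in the EPI (log2 fold change -2.26, SE 0.25, edgeR adjusted p = 0.00192). NPC2 and TSPAN13 were thus expressed in both layers. They did not overlap between the layers, but that was a condition for naming genes of smallest p. With every lineage fitted, OAT and TSPAN13 were not called (edgeR adjusted p = 0.37 and 0.275). FGL2, a fibrinogen-like secreted protein, had 69.4, 220.0 and 268 TPM in the HYPO and 2 counts in EPI, a ratio of 23192-fold (95% counting interval 6419 to 191529) (edgeR adjusted p = 0.000203).

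Junction genes were called on both sides, 2 of 35 tested in EPI and 3 in HYPO, against 0.564% and 0.571% over all genes. GJA1, the connexin 43 gene, had 52.7, 193, 124 and 81.01 TPM in the EPI and 0, 0.307 and 0.422 TPM in the HYPO (log2 fold change 8.36, SE 1.18, edgeR adjusted p = 0.00797). CLDN10, a claudin of tight junctions, had 299, 76.8, 84.4 and 93.1 TPM in the EPI and 3 counts in HYPO, a ratio of 708.2-fold (95% counting interval 242 to 3435) (edgeR adjusted p = 0.0296). In HYPO, CLDN4, another claudin, had 927, 316 and 744 TPM against 1.16, 2.27, 0.176 and 10.21 TPM in the EPI (log2 fold change -7.40, SE 1.26, edgeR adjusted p = 0.0187). The values of these claudins lay in opposite layers. PECAM1, an adhesion molecule known from endothelium, had 36.99, 13.3 and 73.5 TPM in the HYPO and 1 count in EPI, a ratio of 17472-fold (95% counting interval 3134 to 690277) (edgeR adjusted p = 0.00363). MPZL2, an epithelial adhesion protein outside the list, had 1019, 621 and 675 TPM in the HYPO and 25.7, 34.01, 17.7 and 17.98 TPM in the EPI (log2 fold change -4.90, SE 0.46, edgeR adjusted p = 0.000752). The fifth called member was OCLN, the occludin gene (log2 fold change -2.87, SE 0.59, edgeR adjusted p = 0.0471). With the embryo as a block CLDN10 and OCLN were lost (edgeR adjusted p = 0.171 and 0.286). CLDN10 was lost without any one EPI, at an edgeR adjusted p of 0.151, 0.0618, 0.0744 and 0.0756 without C, D, E and F, CLDN4 without the EPI of E (0.0597), and OCLN without any sum but the HYPO of C (edgeR adjusted p up to 0.146). In a fit of all lineages GJA1, CLDN10 and OCLN were not called (edgeR adjusted p = 0.295, 0.287 and 0.303).

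None of the 17 tested transcription factors of hypoblast and endoderm was called in either direction by edgeR. DESeq2 (1452 calls over all 14721 genes) called 6 of them and limma (367 calls) 2, all higher in HYPO. At an unadjusted p under 0.05, 9 were higher in HYPO and 1 in EPI, where 5.93% and 9.26% of all genes were. The list median was -4.40 (-5.45 with the genes at 0 in one lineage set at their bound), beside 0.57 (0.54) over all genes. GATA4 had 10.19, 0 and 20.8 TPM in the HYPO of C, E and F and no count in EPI (edgeR adjusted p = 0.161). HNF4A had 70.2, 0 and 32.97 TPM and FOXA2 11.8, 10.4 and 9.65 TPM in the HYPO, again with no count in EPI (edgeR adjusted p = 0.0743 and 0.0818). The 2 HYPO cells of embryo E held no count of GATA4 or HNF4A, and FOXA2 was seen in all 3 embryos. GATA6 had 113, 14.6 and 14.99 TPM in the HYPO and 6.09, 0, 0 and 0 TPM in the EPI (log2 fold change -4.40, SE 2.36, edgeR adjusted p = 0.394), so that only the EPI of embryo C held counts. PDGFRA, a receptor of early hypoblast, had 66.6, 33.98 and 53.2 TPM in the HYPO and 0, 2.69, 0 and 0 TPM in the EPI (log2 fold change -6.35, SE 2.24, edgeR adjusted p = 0.235). All 5 genes had counts in the HYPO of C and F, and PDGFRA, GATA6 and FOXA2 in that of E as well.

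Signalling lists gave few calls, where 0.564% of all genes were called higher in EPI and 0.571% in HYPO. In TGF-beta, NODAL and BMP signalling 1 of 32 tested genes was called, ID2, an inhibitor of bHLH factors that BMP induces. ID2 had 227, 706.2 and 414 TPM in the HYPO and 18.2, 13.2, 7.56 and 15.4 TPM in the EPI (log2 fold change -4.80, SE 0.62, edgeR adjusted p = 0.00476), and 0.0629 was its edgeR adjusted p with the embryo as a block. With the 7 lineages in the model it was 0.295. SMAD2, a transducer of NODAL, had 88.04, 65.7, 98.2 and 95.1 TPM in the EPI and 99.7, 159.9 and 161 TPM in the HYPO (log2 fold change -0.68, SE 0.57, edgeR adjusted p = 0.588). None of 35 WNT genes was called by edgeR, and DESeq2 (1452 calls over all 14721 genes) called 6 in EPI and 2 in HYPO and limma (367 calls) 0. At an unadjusted p under 0.05, 7 were higher in EPI and 2 in HYPO, where 9.26% and 5.93% of all genes were. None of 16 JAK-STAT genes was called by edgeR, and DESeq2 called 2 and limma 1, all in HYPO. At an unadjusted p under 0.05, 0 of these were higher in EPI and 2 in HYPO, beside the same shares of all genes. FZD2, a WNT receptor, had 17.3, 48.7, 34.5 and 72.9 TPM in the EPI and 1 count in HYPO (edgeR adjusted p = 0.0738). STAT3, which transduces the signal of LIF and IL6, had 26.9, 52.9, 53.7 and 60.04 TPM in the EPI and 1.26, 0 and 11.8 TPM in the HYPO (log2 fold change 3.36, SE 1.53, edgeR adjusted p = 0.33).

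In chromatin and in metabolism the calls were also few. Over all genes 0.564% were called higher in EPI and 0.571% in HYPO. HELLS, a helicase that aids DNA methylation, had 305, 617, 348 and 596 TPM in the EPI and 38.3, 94.2 and 16.5 TPM in the HYPO (log2 fold change 3.26, SE 0.61, edgeR adjusted p = 0.03), and was the only call among 34 genes of DNA methylation, Polycomb and chromatin. It was lost without the EPI of E or F or the HYPO of C (edgeR adjusted p = 0.0873, 0.058 and 0.0968). Of 34 genes of glycolysis, glycogen and hypoxia, EGLN3 and PYGM were higher in EPI and CA2 in HYPO. CA2, a carbonic anhydrase, had 245, 195 and 175 TPM in the HYPO and 0.156, 0, 0 and 0.0347 TPM in the EPI (log2 fold change -10.95, SE 1.403, edgeR adjusted p = 0.00445). PYGM, the muscle glycogen phosphorylase, had 55.4, 30.3, 13.9 and 32.1 TPM in the EPI and no count in HYPO (at least 532-fold, edgeR adjusted p = 0.0224). PYGM was lost with the embryo as a block (edgeR adjusted p = 0.203) and without any one EPI (edgeR adjusted p = 0.107, 0.0641, 0.059 and 0.0772 without C, D, E and F). DPYSL2, a collapsin response mediator, was the only edgeR call of 38 genes of axon guidance (DESeq2 called 15 in EPI and 3 in HYPO, of 1452 calls over all genes, and limma 3 and 0, of 367), with 85.6, 57.1, 244 and 35.6 TPM in the EPI and 0.0893, 0.105 and 2.63 TPM in the HYPO (log2 fold change 6.71, SE 1.38, edgeR adjusted p = 0.0471). That call was lost with the embryo as a block (edgeR adjusted p = 0.0733) and without the EPI of C or E or the HYPO of C or E (edgeR adjusted p = 0.0793, 0.141, 0.0802 and 0.0946). The axon guidance list had a median of 4.75 (3.62 with the genes at 0 in one lineage set at their bound), and 16 of its genes were higher in EPI and 5 in HYPO at an unadjusted p under 0.05, where 9.26% and 5.93% of all genes were. In the model with 7 lineages CA2, PYGM and DPYSL2 were not called (edgeR adjusted p = 0.128, 0.298 and 0.273). None of 21 cell cycle genes was called by edgeR, 0 by DESeq2 and 1 by limma. At an unadjusted p under 0.05, 1 was higher in EPI and 0 in HYPO, beside 9.26% and 5.93% of all genes. TOP2A, a marker of dividing cells, had 183, 437, 36.2 and 450.0 TPM in the EPI and 33.3, 4.33 and 293 TPM in the HYPO (log2 fold change 1.30, SE 1.18, edgeR adjusted p = 0.624). TOP2A was lower in HYPO than in EPI in each of C, E and F, but the values of the layers overlapped between embryos. None of 16 stress and RNA quality genes was called by edgeR, DESeq2 or limma. At an unadjusted p under 0.05, 1 was higher in EPI and 2 in HYPO, again beside 9.26% and 5.93% of all genes. HSP90AB1, a chaperone, had 977 ± 46.5 TPM in EPI (SD, n = 4) and 699 ± 167 TPM in HYPO (SD, n = 3).

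**Figure D3:**
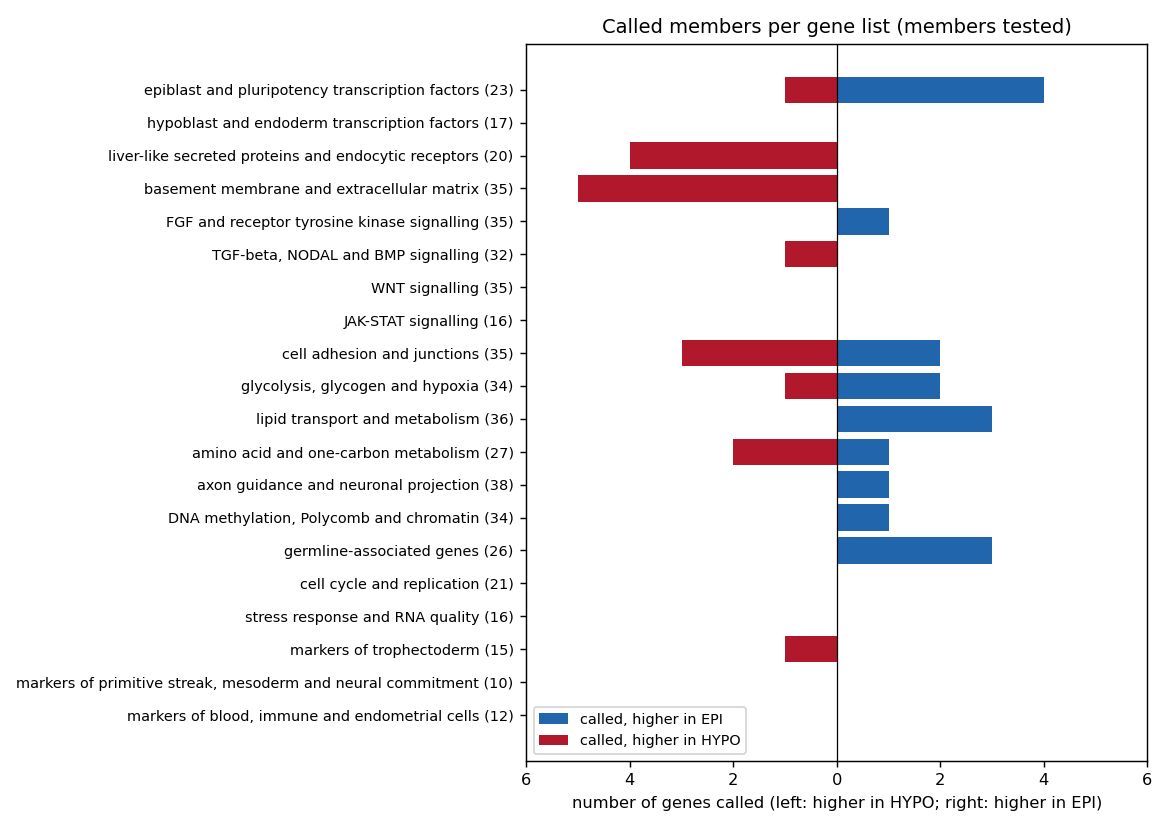
Number of called genes in each of 20 gene lists (members tested in brackets), higher in EPI to the right and higher in HYPO to the left. The calls are those of edgeR, with 5 matrix and 4 liver-like genes in HYPO, 3 germline and 3 lipid genes in EPI, and no gene in 7 lists. Over all genes 0.564% were called higher in EPI and 0.571% in HYPO.

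Markers of other cell types moved with the layers in part. The 16 measured trophectoderm markers summed to 2893 to 9288 TPM in the EPI and 17385 to 43319 TPM in the HYPO, nearly all of it KRT8 and KRT18. KRT8, a keratin of simple epithelia, had 25809, 15065 and 34824 TPM in the HYPO and 6776, 5562, 2503 and 6581 TPM in the EPI (log2 fold change -2.17, SE 0.38, edgeR adjusted p = 0.0215). KRT8 was the only edgeR call of the 15 tested, where 0.571% of all genes were called higher in HYPO. Without the HYPO of C or F it was lost (edgeR adjusted p = 0.0564 and 0.0508). In the 7-lineage model its edgeR adjusted p was 0.332. Of the factors that define trophectoderm, CDX2 had no count in the 60 cells and GATA2 had 1 count in each layer, whereas GATA3 ran from 11.2 to 34.1 TPM in the HYPO and from 0 to 0.444 TPM in the EPI. DAB2, an endocytic adaptor shared by hypoblast and trophectoderm, had 93.8, 202 and 238 TPM in the HYPO and 2.67, 0, 0.0705 and 2.68 TPM in the EPI (log2 fold change -6.91, SE 1.59, edgeR adjusted p = 0.0745). Other members did not lie higher in HYPO. PTGS2 reached 8.67 TPM in the EPI and 0.270 in the HYPO, and CYP17A1 8.23 and 0. ANXA6 ran from 74.1 to 216 TPM in the EPI and from 0.494 to 171 TPM in the HYPO. TEAD4 ran from 10.9 to 39.6 and from 3.47 to 72.0 TPM. The list median was -0.05 (0.07 with the genes at 0 in one lineage set at their bound), beside 0.57 (0.54) over all genes. Of 15 measured markers of primitive streak, mesoderm and neural commitment, T and MSGN1 had no count. Their sum was 17.4 to 51.2 TPM in the EPI and 59.4 to 296 TPM in the HYPO, and none of 10 tested was called by edgeR or limma. At an unadjusted p under 0.05, 1 was higher in EPI and 3 in HYPO, where 9.26% and 5.93% of all genes were. Among its 1452 calls over all genes, DESeq2 called the same numbers of these 10. MIXL1 had 148, 0 and 6.02 TPM and EOMES 131, 11.7 and 56.4 TPM in the HYPO, and CDX4 had 36.1, 8.82, 19.04 and 29.4 TPM in the EPI and no count in HYPO (EOMES, like NODAL, is an added entry; edgeR adjusted p = 0.161, 0.267 and 0.0746). Of 16 measured markers of blood, immune and endometrial cells, PTPRC, CSF1R, C1QA and ESR1 had no count. None of 12 tested was called by edgeR, DESeq2 or limma. At an unadjusted p under 0.05, 0 were higher in EPI and 2 in HYPO, again beside 9.26% and 5.93% of all genes. These markers summed to 50.3 to 139 TPM in the EPI and 103 to 242 TPM in the HYPO, and most of each sum was UPK1B. UPK1B alone ran from 40.8 to 119 TPM in the EPI and from 66.9 to 242 TPM in the HYPO. The next highest members were SPP1 in the EPI and ALAS2 in the HYPO. The sums thus mainly give the level of 1 gene. The part of other cell types in the results was not tested.

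The same genes were followed through the earlier stages, morula (M), early blastocyst (EB) with inner cell mass (ICM) and trophectoderm (TE), and late blastocyst (LB). Levels are means of embryo means ± SD over embryos and are given as a description. ETV1 had 18.3 ± 11.1 TPM in ICM, 56.1 ± 19.9 in LB EPI and 61.5 ± 13.2 in Sph EPI, and TDRKH 30.7 ± 33.2, 822 ± 73.5 and 554 ± 268. The embryos of LB EPI and Sph EPI overlapped for both genes. VSNL1 had 12.8 ± 25.2 TPM in LB EPI, 293 ± 65.1 in Sph EPI, and was listed at 0 in every M, ICM and TE embryo. APOA2 ran from 629 ± 552 TPM in ICM to 1744 ± 736 in LB HYPO and 5791 ± 3329 in Sph HYPO, and in EPI from 42.5 ± 78.3 in LB to 0.0415 ± 0.083 in Sph. FN1 had 1569.6 ± 796 TPM in LB HYPO and 2189 ± 1118 in Sph HYPO. FMOD was listed at 0 in every M, EB and LB HYPO embryo and had 1 count in LB EPI, against 139 ± 135 TPM in Sph HYPO. KRT8 had 25948 ± 11871 TPM in TE, 1795 ± 294 in LB HYPO and 25232 ± 9892 in Sph HYPO. In HYPO, FMOD and KRT8 thus had their higher level at the later of the 2 stages.

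**Figure D4:**
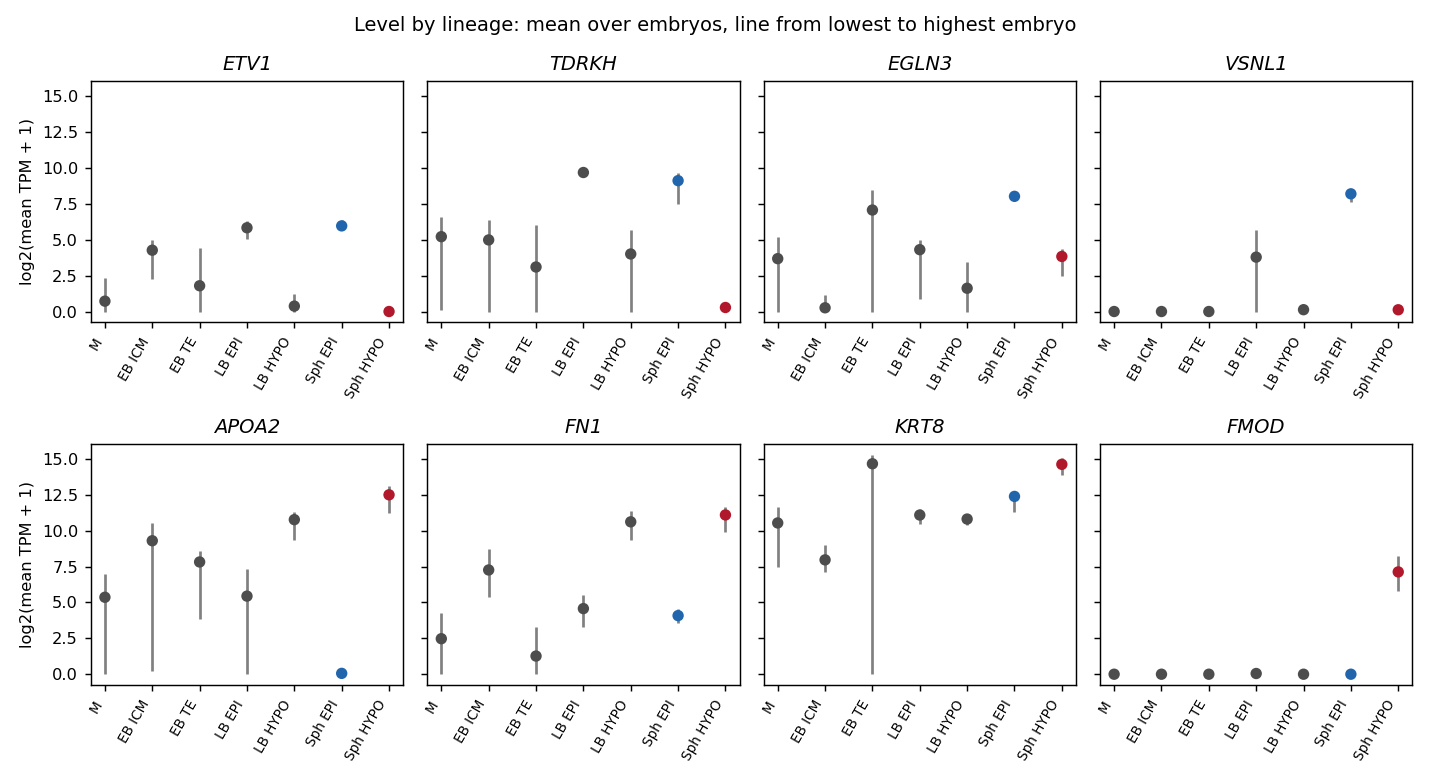
Level of 8 genes in the 7 lineages from morula to spherical embryo, as log2(mean TPM + 1), with a line from the lowest to the highest embryo; Sph EPI is blue and Sph HYPO red. ETV1 and TDRKH had overlapping ranges in LB and Sph EPI, while EGLN3 and VSNL1 had higher levels in Sph EPI than in LB EPI, and FMOD had its highest level in Sph HYPO.

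The contrast of EPI and HYPO could be compared with that of the LB stage, where 283 of 14721 genes (1.92%) were called between 4 EPI and 5 HYPO sums. Of the 167 Sph calls, 54 were also called at LB, all in the same direction, which is 32.3% of the Sph calls and 19.1% of the LB calls. The LB and Sph sums share no embryo. The difference between the contrasts was tested as an interaction, and 6 genes (0.0408%) were called, with 1597 at an unadjusted p under 0.05. PLA2G7, a secreted phospholipase, had 9998 counts in LB EPI and 2 in LB HYPO, whereas at the Sph stage it had 37.7, 6.91, 0 and 36.7 TPM in the EPI and 98.2, 80.1 and 130.05 TPM in the HYPO (edgeR adjusted p of the interaction = 0.0127). KRT18, the partner of KRT8, was higher in EPI at LB (log2 fold change 3.27, SE 0.35, edgeR adjusted p = 0.00078) and had 1951, 1937, 305 and 2417 TPM in the EPI and 2314, 2006 and 7970.3 TPM in the HYPO at Sph (log2 fold change -1.26, SE 0.67, edgeR adjusted p = 0.391). Its interaction had an edgeR adjusted p of 0.0371. CLU, the secreted chaperone clusterin, was called at Sph (log2 fold change -3.37, SE 0.52, edgeR adjusted p = 0.012; edgeR adjusted p = 0.0734 without the EPI of E) but not at LB (log2 fold change 1.71, SE 0.50, edgeR adjusted p = 0.12), with an interaction of -5.16 (SE 0.78, edgeR adjusted p = 0.0176). These 3 and SLC44A4 and DMXL1 moved towards HYPO from LB to Sph, and 1 gene without a symbol towards EPI. The calls were unstable: 0 remained without the EPI of C or of D, 2 without the EPI of E, 1 without the HYPO of C and 165 came without the HYPO of F.

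The 8 HYPO cells of embryo F, which held most of the HYPO counts, varied in the levels of some genes. In ascending order HAPLN1 had 30.6, 36.5, 86.4, 154, 175, 480.3, 769 and 921 TPM. In the same order of cells, KRT8 had 48518, 47806, 43594, 54934, 28608, 25463, 15347 and 14321 TPM and NID2 7.39, 81.8, 43.3, 83.2, 49.2, 111, 122 and 156 TPM. Over these 8 cells Spearman's rho with HAPLN1 was -0.86 for KRT8 and 0.88 for NID2. The other matrix genes named above did not share one direction, with -0.88 for FMOD, -0.79 for FN1, -0.40 for VCAN and 0.36 for LAMB1. Of the 60 other genes with a symbol called higher in HYPO, 11 had a rho under -0.8, among them FMOD and APOC3 (-0.86), and 3 had a rho over 0.8. The cells come from 1 embryo and the pattern was seen before it was described, so no test is given. HAPLN1 and KRT8 also followed the number of genes with a count, with a rho of -0.76 for HAPLN1 and 0.86 for KRT8, but less so total counts (0.17 for HAPLN1), and the part of either in the pattern was not tested. Over all 12 HYPO cells the rho of KRT8 with HAPLN1 was -0.90 and that of NID2 0.34. The HYPO cells of E had HAPLN1 at 585 and 594 TPM and those of C at 289 and 215 TPM, between the extremes of F.

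**Figure D5:**
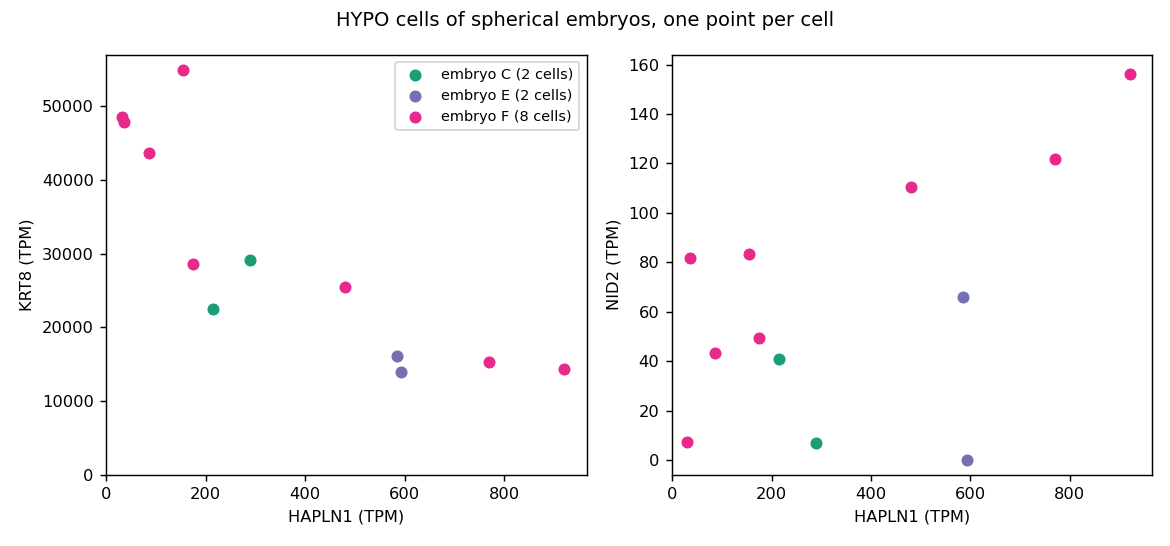
KRT8 (left) and NID2 (right) against HAPLN1, all in TPM, in the 12 HYPO cells, one point per cell and coloured by embryo. In embryo F, KRT8 was highest, 54934 TPM, in a cell with 154 TPM of HAPLN1 and lowest, 14321 TPM, in the cell with most HAPLN1, which also had most NID2.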

How the data were processed

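Single cells of pig embryos were sequenced with Smart-seq2. The authors trimmed reads (scythe, sickle), aligned them with HISAT2 2.1.0 to Sscrofa10.2, counted uniquely mapped reads per Ensembl gene with HTSeq, and left out cells of low read number or with a mitochondrial share of 0.5 or more. The authors deposited raw counts and TPM derived from them, with 16 entries added to the annotation. Symbols were matched for 11443 of 22840 entries, which held 75.3% of counts. No sequence is shown, since no genome of that build was used here.

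Counts were summed per embryo (letter of the cell name) and lineage. Genes with TPM over 1 in at least 3 of the 220 cells were kept (14721 genes, of which 751 had no count in the spherical embryos). Sums were compared with edgeR 4.0.16 (quasi-likelihood test, TMM factors, R 4.3.3) with Benjamini-Hochberg adjustment, called at 0.05. The standard error is the log2 fold change over the root of F. limma 3.58.1 and DESeq2 1.42.0 served as alternatives, and tables were made in Python 3.11.15. Folds of genes with 0 counts in a lineage are bounds against 3 counts over that lineage, and those with 1 to 3 counts are ratios of group totals with an exact 95% interval. Shares of cells have exact Clopper-Pearson intervals. Intervals and limits cover counting error only, since reads carry no molecular identifiers. TPM values are means over the cells of an embryo. The scripts were tested on simulated data. The study tested single cells with SCDE, which was not run here.

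Same-letter sums come from the same animal, so the embryo pairs C, E and F. Their residuals correlated at 0.002, 0.054 and 0.188 over 6640 genes, and those of other pairs at -0.165 to 0.143. The block is an alternative, since the study used none.

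Genes named are the lineage markers, up to 12 of smallest p in each direction with a symbol and no overlap, and up to 4 per list. LAMB1, OCLN, PLA2G7, CLU, SLC44A4, DMXL1 and the X-linked genes were named after their values were seen. The members and lists were chosen with earlier results of these data known. Some genes that these rules name are not reported here.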

Additional observations from a re-analysis of the deposited data

Results flagged for a closer look

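In 17 genes the EPI of 1 embryo lay apart from the other 3, by the gap to its neighbour over the range of log2(CPM + 1), of 62 genes so examined. In groups of 4 continuous values chance sets about 1 in 20 apart. A gene with counts in only 1 EPI sum is set apart by the rule itself. That rate thus does not hold for APOA2, HABP2, NID2, PECAM1, TBX3, GATA6 and PDGFRA. Some gaps were at levels of few counts: APOA2 in embryo C (0.0293 CPM), CA2 in C (0.586), SLC7A9 in C (0.322), APOM in F (0.652), HABP2 in F (0.0449), NID2 in F (0.0674), PECAM1 in F (0.0225) and TBX3 in E (0.105 CPM), each against 0 or near 0 in the other embryos. GATA6 was at 15.5 CPM in embryo C and PDGFRA at 4.87 CPM in embryo D, with no count in the other EPI. MPZL2 was high in D (51.3 CPM) and OCLN in C (237 CPM). In embryo E, with 4 cells, KRT18 (242 CPM), TDRD10 (210 CPM), VSNL1 (72.6 CPM), EGLN3 (423 CPM) and EOMES (0 CPM) were lowest.

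The contrast of EPI and HYPO differed between the Sph and LB stages by an edgeR interaction test for 5 named genes. On the log2 scale the difference, Sph minus LB, was -14.67 for PLA2G7, -5.16 for CLU, -14.90 for SLC44A4, -4.63 for KRT18 and -5.66 for DMXL1 (edgeR adjusted p = 0.0127, 0.0176, 0.0371, 0.0371 and 0.0371). With 2 counts of PLA2G7 in LB HYPO and 10 of SLC44A4 in Sph EPI, the sizes for these 2 depend on the prior count. With the embryo as a block SLC44A4 and DMXL1 were not called (edgeR adjusted p = 0.535 and 0.537). Leaving out 1 sum, PLA2G7 was lost without the EPI of C or D (edgeR adjusted p = 0.053 and 0.0635), and over all 7 the highest values were 0.0656 for CLU, 0.16 for SLC44A4, 0.106 for KRT18 and 0.134 for DMXL1.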

How the results depend on the processing

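Of 167 calls (83 higher in EPI, 84 in HYPO), DESeq2 gave 1452 (959 and 493), limma on mean log2(TPM + 1) 367 (192 and 175), sums thinned to the smallest total 291 (176 in HYPO), cells of the last 4 pools 89 (44 and 45), and a model of all 7 lineages 95 (27 in EPI), which shared 53 genes with the 167. With the embryo as a replicate block there were 82 (33 and 49), of which 72 were shared. Beside the genes whose blocked value is given in the report, the block ended the calls of SLC44A4 and DMXL1 (edgeR adjusted p = 0.0634 and 0.0629; 0.128 and 0.196 in the 7-lineage model) among the genes named. Leaving out 1 sum gave 78 to 583 calls, 32 to 467 in EPI and 46 to 116 in HYPO. The interaction of stage and lineage gave 571 calls with DESeq2, 13 without TMM factors, 13 with the block, and 0 to 165 when 1 sum was left out. The log2 fold change of NODAL, not called, changed sign with the first 4 pools (-0.39) and without the HYPO of E (-0.10), and ran from -0.10 to 2.33 when 1 sum was left out. Over all genes the median log2 fold change was 1.04 with the block, 0.13 with limma and 1.54 without the HYPO of F. The cause of these changes was not tested. Over 48 named called genes and 19 alternatives, 794 of 911 values stayed past the threshold, 117 did not, and 0 changed sign. Calls lost with limma included TBX3, FMOD and PECAM1 (limma adjusted p = 0.198, 0.0928 and 0.0679). Cells of the first 4 pools alone lost EGLN3 and TBX3 (edgeR adjusted p = 0.248 and 0.179). Those of the last 4 alone lost SEPTIN6 and APOC3 (edgeR adjusted p = 0.186 and 0.071). Further losses of these kinds are not listed. HYPO held 12 cells, which limits the precision of its levels.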

Other observations

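XIST, the RNA that coats the inactive X chromosome in females, had 2688 counts in the EPI of embryo D (9 of 11 cells above 1 TPM), 662 in that of F (4 of 19 cells), 2 in that of C and none in that of E. None was counted in the 12 HYPO cells. Its entry is among those the authors added, which hold even counts only. Among the called genes with a symbol, 12 examined here are known to lie on the X chromosome, a count made after their values were seen and without the share of all X-linked genes, since the files pair no gene with a chromosome: 11 of 70 higher in EPI and 1 of 61 (GJB1) higher in HYPO. Embryo D, the EPI with most XIST, gave no HYPO cell, so for XIST and for these genes embryo and layer cannot be fully told apart. The EPI of D was the highest of the 4 for 4 of the 12 genes and the lowest for 3. For SCML2 it had 522 CPM against 141, 246 and 216 in C, E and F, and for SEPTIN6 78.3 against 295, 97.9 and 192. Without embryo D, 9 of the 12 were called, beside 106 (63.5%) of all 167 called genes. USP9X was among those not called (edgeR adjusted p = 0.139, from 0.0374).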
